A study of Mus musculus with 7 samples.

Results

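Hyaluronan synthesis, its binding partners and its breakdown were followed through 8 mouse genes chosen by symbol: the synthases Has1, Has2 and Has3, the matrix proteoglycan gene Vcan, the hyaluronan-modifying gene Tnfaip6, the receptor gene Cd44, and the hyaluronidase genes Hyal1 and Hyal2. All 8 were found among the 44818 features obtained by summing transcripts per gene. The study concerned mesenchymal cell fate and heterotopic bone formation after injury, and the kinase TAK1. Bulk RNA was sequenced from hindlimb tendon of mice on a C57BL/6 background, taken from between the gastrocnemius muscle and the heel bone. The tenotomy group (n = 2) was the left limb of mice given both a partial-thickness back burn (a metal block at 60 °C for 18 s over 30% of the body surface) and a cut through the Achilles tendon, harvested 3 weeks later. The 3 contralateral libraries came from the uncut right limb of mice with the same burn and tenotomy at the same time. The burn is therefore common to both groups, and the contralateral limb is not a limb of a healthy animal. The uninjured group (n = 2) was tendon of wild-type mice with neither injury. The labels used here give no age, do not tie the limbs to particular mice and do not say whether animals were pooled, so p-values measure the spread between these libraries.

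Hyaluronan is a long unbranched sugar polymer of the extracellular matrix. Its synthases sit in the plasma membrane and extrude the growing chain, versican binds the chain and carries chondroitin sulfate, and the secreted TNFAIP6 protein moves heavy chains of inter-alpha-inhibitor onto it. CD44 holds the polymer at the cell surface, and hyaluronidases cut it: HYAL2 at the membrane and HYAL1 in lysosomes. In tendon, hyaluronan is known from the gliding sheath and from the provisional matrix that fills a wound.

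Versican and CD44 are made in several splice forms, and the sequences at the splice junctions that separate them are shown because the transcript shares given further on rest on such differences. Each sequence holds the last 20 bases of an exon in lower case and the first 20 bases of the next exon in capitals, 5′ to 3′ on the transcript, from GENCODE M21 (GRCm38). Vcan lies on the minus strand of chromosome 13 (89655312 to 89742509). Transcript Vcan-203 holds both large exons that encode chondroitin sulfate attachment regions (exon 7, 2880 bases, chr13:89702918-89705797; exon 8, 5217 bases, chr13:89688285-89693501). This is the layout known as V0.
Vcan-203, exons 6 and 7: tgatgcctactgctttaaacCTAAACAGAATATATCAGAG
Vcan-203, exons 7 and 8: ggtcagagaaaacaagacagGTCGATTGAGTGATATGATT
Vcan-206, exons 6 and 7: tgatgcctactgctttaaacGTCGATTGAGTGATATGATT
Vcan-202, exons 7 and 8: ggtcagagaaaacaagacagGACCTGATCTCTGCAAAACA
Vcan-206 skips the 2880-base exon, so its exon 6 runs straight into the 5217-base exon (the layout known as V1). Vcan-202 keeps the 2880-base exon and skips the other (V2).

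Cd44 lies on the minus strand of chromosome 2 (102811141 to 102901665). In the standard form without variable exons, exon 5 of Cd44 is joined to the constant exon at chr2:102828542-102828610. In Cd44-201 it is joined instead to a variable exon at chr2:102848657-102848782.
Cd44 standard form, exons 5 and 6: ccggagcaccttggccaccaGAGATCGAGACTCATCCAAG
Cd44-201, exons 5 and 6: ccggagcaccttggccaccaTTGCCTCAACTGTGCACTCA

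The promoters of Has1 and Tnfaip6 are shown because these genes had the largest changes among the 8. They hold only bases before both the RefSeq and the GENCODE start of the gene, from RefSeq (GRCm38.p6), with a motif match in capitals. For both genes the GENCODE start comes first, so the printed stretch ends there, short of the RefSeq start from which distances are counted. A window of 250 bases before to 50 bases after the start was matched for 6 of the 8 genes, all but Has2 and Has3.
Tnfaip6, chr2:52037863-52038008, plus strand: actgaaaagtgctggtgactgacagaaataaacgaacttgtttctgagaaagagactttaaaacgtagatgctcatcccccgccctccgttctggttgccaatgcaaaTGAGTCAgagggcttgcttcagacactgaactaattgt
Has1, chr17:17855206-17855438, minus strand: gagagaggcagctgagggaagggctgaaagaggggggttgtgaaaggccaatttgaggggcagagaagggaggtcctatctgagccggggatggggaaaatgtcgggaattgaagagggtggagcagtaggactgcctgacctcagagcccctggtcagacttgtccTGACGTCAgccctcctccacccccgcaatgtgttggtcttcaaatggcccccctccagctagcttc
The capitals in Tnfaip6 match the AP-1 motif TGANTCA, 142 bases before the RefSeq start. That motif was found on either strand in 7.81% of 32851 windows and in 1 of the 6 member windows. The capitals in Has1 match the cyclic AMP response element TGACGTCA, 83 bases before the RefSeq start, found in 1.79% of windows and in 1 of 6. Both motifs are palindromic, so a match reads on both strands, and no matches of different motifs overlapped. In the 300-base windows, the C/EBP motif TTGCNNAA (10.8% of windows) was found in Has1 and the NF-kB motif (4.51%) in Hyal2. The TATA motif TATAAA (13.6%) was found in 0 of 6.

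Library totals ranged from 25927171 to 36725106 estimated counts, of which 5 features took between 76.4% and 81.4%. The uninjured libraries stood apart from each other. Summed over 12 skeletal muscle markers, CPM (counts relative to the library total as scaled by edgeR's TMM factors) came to 2383 in uninjured replicate 1 and 16394 in replicate 2, against 21902 to 24156 in contralateral and 1860 to 1865 in tenotomy libraries. Uninjured replicate 1 was thus near the tenotomy libraries on that list and replicate 2 nearer the contralateral ones. The macrophage and leukocyte list (12 genes) summed to 120.7 and 32.6 CPM in uninjured replicates 1 and 2, 24.8 to 32.9 in contralateral and 116.2 to 120.02 in tenotomy libraries. The fibroblast list (6 genes) summed to 2825 and 680.8, 417 to 489.9 and 3262 to 3294 CPM in the same order. The cartilage list (7 genes) summed to 179.2 CPM in uninjured replicate 1 and 27.3 in replicate 2. Whether the label of replicate 1 is right could not be settled from these data, and every value of the uninjured group depends on it. Tendon markers (10 genes) summed to 884 to 1241 CPM in contralateral, 4795 to 4808 in tenotomy and 3968 to 4415 in uninjured libraries. Most of each sum came from Col1a1 and Col1a2, so the sums mainly follow those genes. Tnmd measured 25.3 and 11.8 CPM in uninjured replicates 1 and 2, 5.41 to 9.07 in contralateral and 28.5 and 27.3 in tenotomy libraries. Fmod went the other way in the uninjured replicates, at 97.6 and 137.4 CPM. No listed marker was at 0 in all 7 libraries. Results that use the uninjured group are therefore given with and without each of its libraries.

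The clearest difference lay between the cut tendon and the uncut limb. Has1, Has2, Vcan, Tnfaip6 and Cd44 were higher at the tenotomy site in both libraries than in any contralateral library, by 2.4-fold to 6.5-fold on the fitted scale. The same separation was seen for 31.9% of all features. Has3, Hyal1 and Hyal2 did not pass the test. In edgeR's quasi-likelihood test over all 7 libraries, 5 of 8 genes were therefore called higher and 0 lower (Benjamini-Hochberg adjusted p under 0.05), where 29.0% of the 16028 features tested were called (13.6% higher and 15.4% lower). All 5 shared an adjusted p of 0.0167 by edgeR, because the adjustment can give genes of different rank the same value. Their unadjusted p in that test ran from 0.00013 for Tnfaip6 to 0.00084 for Has2. The 8 genes' median log2 fold change was 1.43, against -0.0012 over all features. All 8 passed the filter on low counts. Has1 was above the filter's CPM cutoff in the fewest libraries, 4, with 2 of them outside the tenotomy group, where 2 were needed.

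**Figure D1:**
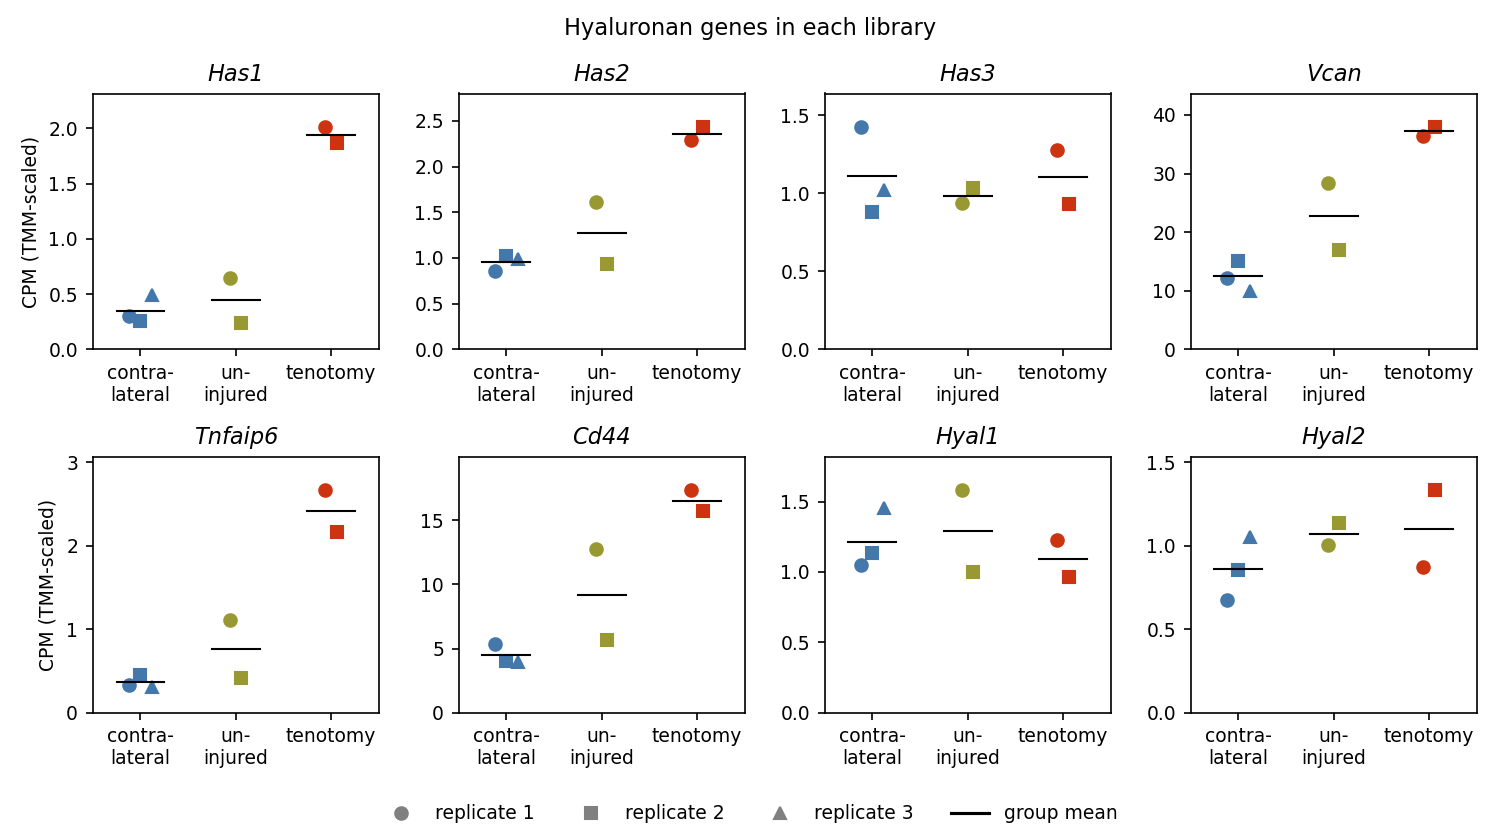
CPM (TMM-scaled) of the 8 genes in each library, 1 panel a gene with its own axis from 0; symbols mark the replicate and lines the group mean. The tenotomy libraries lie above the others for Has1, Has2, Vcan, Tnfaip6 and Cd44, with uninjured replicate 1 between them and the contralateral libraries, and groups overlap for Has3, Hyal1 and Hyal2.

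Among the synthases, Has1 showed the largest rise. Has1 (minus strand, chromosome 17, 17843323 to 17855205) encodes a synthase that many tissues hold at low levels until cytokines induce it. It had 8, 9 and 16 estimated counts in contralateral libraries and 74 and 56 in tenotomy libraries, or 0.300, 0.256 and 0.495 against 2.01 and 1.87 CPM. The counts are small: the exact 95% Poisson interval is 3.45 to 15.8 for the count of 8 and 58.1 to 92.9 for the count of 74, and covers counting error only. The groups did not overlap, and the log2 fold change was 2.46 (SE 0.38, adjusted p = 0.0167 by edgeR).

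Has2 (minus strand, chromosome 15, 56665627 to 56694539) is the synthase required for embryonic heart development and the main one in many mesenchymal cells. Its CPM was 0.862, 1.02 and 0.990 in contralateral and 2.28 and 2.43 in tenotomy libraries. The groups were well separated, with a smaller log2 fold change than Has1 of 1.29 (SE 0.24, adjusted p = 0.0167 by edgeR). Has2os, annotated on the opposite strand, overlaps Has2, and no source used here states whether counting used the strand, so its reads cannot be told apart from those of Has2.

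Has3 (plus strand, chromosome 8, 106870242 to 106884566), which encodes the third synthase, gave 1.42, 0.882 and 1.02 CPM in contralateral and 1.28 and 0.933 in tenotomy libraries. These values overlapped, and the log2 fold change was 0.02 (SE 0.27, adjusted p = 0.968 by edgeR). Its sign turned when single libraries were left out, and it overlaps Chtf8 on the other strand.

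The make-up of the synthase pool can be compared between genes on the TPM scale, which accounts for transcript length. TPM values here are small because a few features take most of each library. Summed over Has1, Has2 and Has3, TPM was 0.0992, 0.0871 and 0.0896 in contralateral, 0.249 and 0.269 in tenotomy, and 0.143 and 0.0774 in uninjured libraries. Has1 made up 28.4% ± 6.58 (SD, n = 3) of that sum in contralateral libraries and 55.5% ± 1.77 (SD, n = 2) at the tenotomy site. Has3 made up 34.7% ± 6.36 (SD, n = 3) and 13.4% ± 0.284 (SD, n = 2). The share of Has2 was closer, at 36.9% ± 6.69 (SD, n = 3) and 31.1% ± 2.05 (SD, n = 2), with a lowest contralateral share of 33.02% and a highest tenotomy share of 32.6%. None of the 3 shares overlapped between these groups on the TPM scale. As parts of one sum, the shares depend on each other, and a share can fall without a fall in TPM. Mean TPM was 0.0321 in contralateral and 0.0346 in tenotomy libraries for Has3, and 0.0338 and 0.0807 for Has2. By estimated counts Has1 and Has3 again did not overlap, but the mean share of Has2 was 40.05% in contralateral and 43.6% in tenotomy libraries, the other direction, with overlap. With 3 against 2 libraries no exact permutation test of a share can pass 0.05, so none is given. Has1 had the largest share at the tenotomy site on the TPM scale, but by estimated counts, without length, Has2 did (43.6% against 35.9% for Has1). In uninjured libraries the TPM share of Has1 was 38.0% in replicate 1 and 24.02% in replicate 2.

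**Figure D2:**
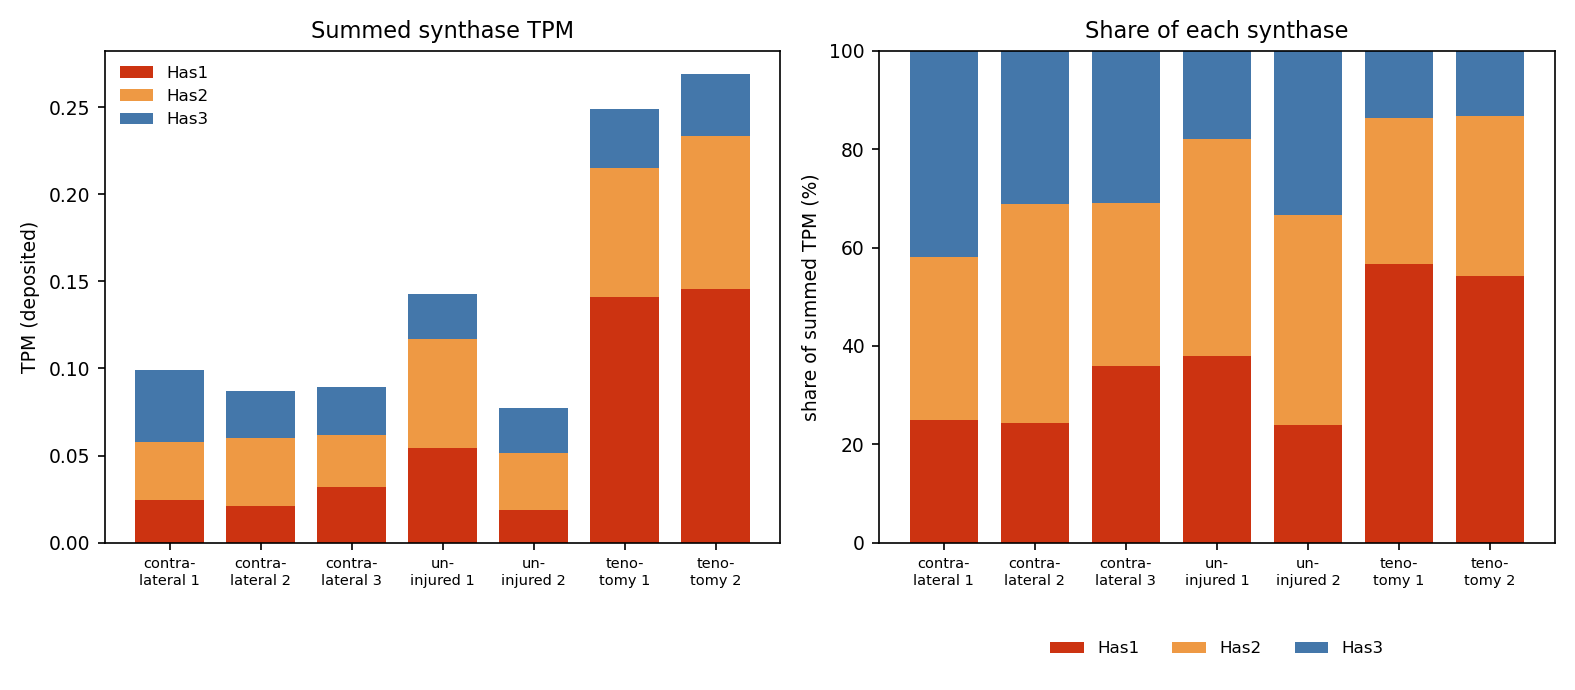
Deposited TPM of the hyaluronan synthases stacked by library (left, from 0) and the share of each in the sum, in percent (right). The sum is between 0.249 and 0.269 in tenotomy libraries and at most 0.143 elsewhere, and Has1 holds over 54% of it only in the 2 tenotomy libraries.

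Versican was the most abundant of the 8 on the TPM scale by group mean, with a TPM of 0.262 ± 0.0592 (SD, n = 3) in contralateral and 0.701 ± 0.152 (SD, n = 2) in tenotomy libraries. Cd44 came next at the tenotomy site, with 0.623 ± 0.0315 (SD, n = 2), and its libraries overlapped those of Vcan. Tnfaip6 (0.224 ± 0.0151) and Has1 (0.143 ± 0.00334) followed without overlap. Hyal2, with a mean of 0.0865, overlapped both Has2 (0.0807) and Hyal1 (0.0691), and Has3 was lowest at 0.0346.

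In CPM, Vcan measured 12.2, 15.2 and 10.02 in contralateral and 36.4 and 38.0 in tenotomy libraries. The tenotomy libraries differed from each other by less than the contralateral ones did, and the log2 fold change was 1.58 (SE 0.26, adjusted p = 0.0167 by edgeR). Gm16318 and Gm4117 overlap Vcan on the other strand.

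Tnfaip6 (plus strand, chromosome 2, 52038009 to 52056686) had the largest fold change of the 8. Its protein is known as an inflammation-induced hyaluronan-binding factor. Estimated counts were 9, 16 and 10 in contralateral and 98 and 65 in tenotomy libraries, or 0.337, 0.455 and 0.309 against 2.67 and 2.17 CPM. Both tenotomy values were several times the highest contralateral one, and the log2 fold change was 2.70 (SE 0.38, adjusted p = 0.0167 by edgeR).

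Cd44, which encodes the main cell-surface receptor for hyaluronan on fibroblasts and leukocytes, measured 5.40, 4.01 and 3.99 CPM in contralateral and 17.4 and 15.7 in tenotomy libraries. The groups did not overlap, with a log2 fold change of 1.89 (SE 0.32, adjusted p = 0.0167 by edgeR). Gm23731 overlaps Cd44 on the other strand. Macrophage and leukocyte markers moved in the same direction: 9 of 10 tested (of 12 listed) were called higher, with the sums given above, and the neutrophil list (5 genes, 1 tested) stayed under 1 CPM in every library. Of the tendon list 6 of 10 were called higher, of the fibroblast list 5 of 6, and of the cartilage list 7 of 7, with sums of 12.99 to 18.6 CPM in contralateral and 380.3 to 380.8 in tenotomy libraries. All 12 muscle markers were called lower. Of the adipose list 5 of 8 were called lower, with sums of 276.4 to 340.8 CPM in contralateral and 115.4 to 115.7 in tenotomy libraries. Of the synovial lining list 2 of 4 were called lower, with sums of 85.1 to 132.5 and 25.2 to 25.8 CPM. Neither list had a gene called higher. Over all features 13.6% were called higher and 15.4% lower. The part of these lists in the rise of the 5 hyaluronan genes was not tested, and in bulk tissue fewer cells of a type and less RNA per cell cannot be told apart.

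The hyaluronidase genes gave no call. Hyal1 (plus strand, chromosome 9, 107576927 to 107581710), whose product degrades short hyaluronan in lysosomes, measured 1.05, 1.14 and 1.45 CPM in contralateral and 1.22 and 0.967 in tenotomy libraries, with a log2 fold change of -0.14 (SE 0.27, adjusted p = 0.726 by edgeR). Hyal2 (plus strand, chromosome 9, 107567945 to 107572779), whose product is anchored at the cell surface, measured 0.675, 0.854 and 1.05 against 0.870 and 1.33 CPM, with a log2 fold change of 0.33 (SE 0.28, adjusted p = 0.403 by edgeR). Values of both genes overlapped between the groups, and an adjusted p of this size does not show that levels were equal. Hyal1 shares bases with Hyal3, Naa80 and Gm16343, and Hyal2 with Gm9917, so some of their reads may belong to the neighbour.

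How firmly the 5 calls stand depended on which libraries set the spread. Fitted over only contralateral and tenotomy libraries, the edgeR adjusted p was 1.3e-05 for Has1, 9.6e-05 for Has2, 2.6e-07 for Cd44, 1.8e-06 for Vcan and 2.0e-06 for Tnfaip6, where 46.1% of 16014 features were called and 22.1% called higher. In that fit the 5 calls held with any library left out, at adjusted p of at most 0.0024. The tenotomy libraries lay close on summed muscle markers (1860 and 1865 CPM) and cartilage markers (380.8 and 380.3), less so on endothelial ones (63.1 and 52.3). No label says whether they came from different mice, so their spread need not be that between animals. In the fit of all 7 libraries, leaving out contralateral replicate 1, 2 or 3 raised the edgeR adjusted p of Has1 to 0.0501, 0.0632 and 0.0642. Leaving out tenotomy replicate 1 or 2 raised it to 0.124 and 0.121, and no gene was called in any of these 5 fits. The log2 fold changes stayed near their values when any library was left out, at 2.25 to 2.80 for Has1, 1.22 to 1.34 for Has2, 1.44 to 1.74 for Vcan, 2.53 to 2.89 for Tnfaip6 and 1.81 to 2.04 for Cd44. Without uninjured replicate 1 or 2, all 5 calls held. The numbers in the sample titles form 3 series, which no label calls a batch. Within the series that holds the contralateral libraries and tenotomy replicate 1, the log2 CPM difference was 2.37 for Has1, 1.20 for Has2, 1.56 for Vcan, 2.68 for Tnfaip6 and 1.96 for Cd44.

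**Figure D3:**
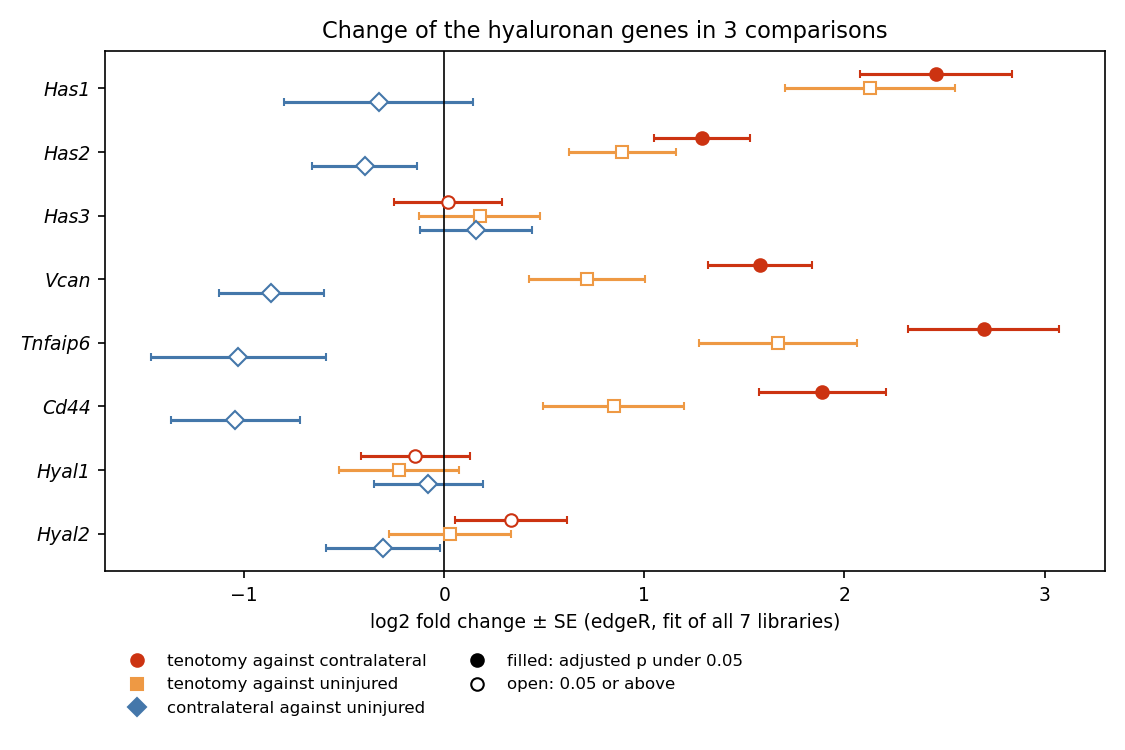
Log2 fold changes of the 8 genes with SE (bars) in the 3 comparisons, from the edgeR fit of all 7 libraries; filled symbols passed an adjusted p of 0.05. The filled symbols are the 5 of the tenotomy against contralateral comparison.

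Compared with the uninjured mice, the same 5 genes had higher values in both tenotomy libraries than in either uninjured library, as had 20.1% of all features. Has1 measured 0.647 and 0.241 CPM in uninjured replicates 1 and 2, Has2 1.62 and 0.929, Tnfaip6 1.11 and 0.413, Vcan 28.4 and 16.96, and Cd44 12.8 and 5.64. Replicate 1 was the higher of the pair each time. The log2 fold changes of the tenotomy site were 2.13 for Has1, 0.89 for Has2, 0.71 for Vcan, 1.67 for Tnfaip6 and 0.85 for Cd44, and none passed (edgeR adjusted p from 0.450 to 0.458). In this comparison edgeR called 0 of 16028 features (0%), with 1741 at an unadjusted p under 0.05, 5 of them among the 8 genes. DESeq2 called 145 features, none of the 8 genes among them. Its adjusted p was 0.246 for Cd44 and 0.229 for Vcan, and it gave none for the other members. Without uninjured replicate 1, all 5 were called higher by edgeR (adjusted p from 7.9e-05 for Cd44 to 0.0026 for Has2), where 11.4% of features were called higher. Without uninjured replicate 2, 0 of 8 were called, with 0.0593% of features called higher. A group left with 1 library is assumed in these fits to vary like the others. Within the title-number series of tenotomy replicate 2 and uninjured replicate 1, the log2 CPM difference was 1.44 for Has1, 0.57 for Has2, 0.42 for Vcan, 0.92 for Tnfaip6 and 0.30 for Cd44, from 1 library each.

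Has3 measured 0.934 and 1.03, Hyal1 1.58 and 0.998 and Hyal2 1.01 and 1.14 CPM in uninjured replicates 1 and 2. Their log2 fold changes at the tenotomy site against uninjured tendon were 0.18, -0.22 and 0.03. All 3 overlapped between the groups.

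The contralateral limb could be set against uninjured tendon to look at the limb that was not cut in burned mice. Log2 fold changes were -0.33 for Has1, -0.40 for Has2, -1.04 for Cd44, -0.86 for Vcan and -1.03 for Tnfaip6, and 0.16, -0.08 and -0.31 for Has3, Hyal1 and Hyal2. None passed the edgeR test (adjusted p = 0.215 for Cd44 and Vcan and 0.258 for Tnfaip6), which called 0 of 16028 features (0%). An unadjusted p under 0.05 was found for 3084 features, 3 of them among the 8 genes. DESeq2 called 223 features, none of the 8 genes among them. Its adjusted p was 0.0923 for Cd44 and 0.0892 for Vcan, and it gave none for the other members. Cd44 and Vcan were lower in all contralateral libraries than in both uninjured ones, as were 16.6% of features. Here too the uninjured replicates pulled apart: without replicate 2, edgeR called Cd44, Vcan, Tnfaip6 and Has2 lower (adjusted p from 2.5e-05 to 0.0374; 15.0% of features called lower). Without replicate 1 it called 0 of the 8 (0.311% of features), and the signs of Has1 and Has2 turned, to 0.53 and 0.053. Uninjured replicate 1 lay above all contralateral and below all tenotomy libraries for Has1, Has2, Vcan, Tnfaip6 and Cd44, as it did for 12.4% of features. The comparisons share their control libraries, so they are not independent of each other.

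The transcript make-up of versican also differed between the libraries of these groups. By estimated counts, Vcan-206, the form without the 2880-base exon, held 23.6% ± 2.98 (SD, n = 3) of Vcan in contralateral, 37.0% ± 1.19 (SD, n = 2) in tenotomy, and 41.7% and 24.8% in uninjured libraries 1 and 2. Vcan-203, the longest form, held 71.8% ± 4.01 (SD, n = 3), 58.9% ± 1.13 (SD, n = 2), and 55.8% and 71.9%. Contralateral and tenotomy libraries did not overlap on either share, and uninjured replicate 1 was on the tenotomy side. On the TPM scale Vcan-206 held 20.5% ± 7.68 (SD, n = 3) and 33.6% ± 2.61 (SD, n = 2), again without overlap. Vcan-203 held 40.9% ± 14.4 (SD, n = 3) and 35.7% ± 4.58 (SD, n = 2), which did overlap. On that scale a handful of reads on short fragments weigh heavily, as in contralateral replicate 3, where 2.44 estimated counts on the 294-base Vcan-204 made up 39.3% of the TPM of the gene. Vcan-202 had at most 14.3 estimated counts in any library. The last exons also differ in length (2047 bases in Vcan-203 and 1019 in Vcan-206), so reads from the 3′ end enter the split, and no test was made.

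The main Cd44 forms showed no such separation. In contralateral libraries the standard form held 45.3% ± 12.5 (SD, n = 3) of Cd44 TPM. Its share was 42.5% ± 2.44 (SD, n = 2) where the tendon had been cut, and uninjured mice gave 39.6% ± 0.0174 (SD, n = 2). Cd44-201, annotated with the variable exons, held 37.2% ± 7.65, 29.8% ± 3.01 and 32.7% ± 6.21. For both forms the contralateral and tenotomy values overlapped. The retained-intron form Cd44-209 did separate: it held 2.52% to 8.12% of Cd44 TPM in contralateral, 9.48% to 12.8% in tenotomy and 11.7% to 15.2% in uninjured libraries. It rested on 1.55 to 4.79 estimated counts in contralateral libraries and 26.9 and 28.7 in tenotomy ones. A 1305-base form was at 0 in all contralateral and uninjured libraries and had 2.58 and 2.55 estimated counts in tenotomy ones. The last exon is 3197 bases in Cd44-201 and 1791 in the standard form, so reads counted for Cd44-201 need not cover a variable exon.

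**Figure D4:**
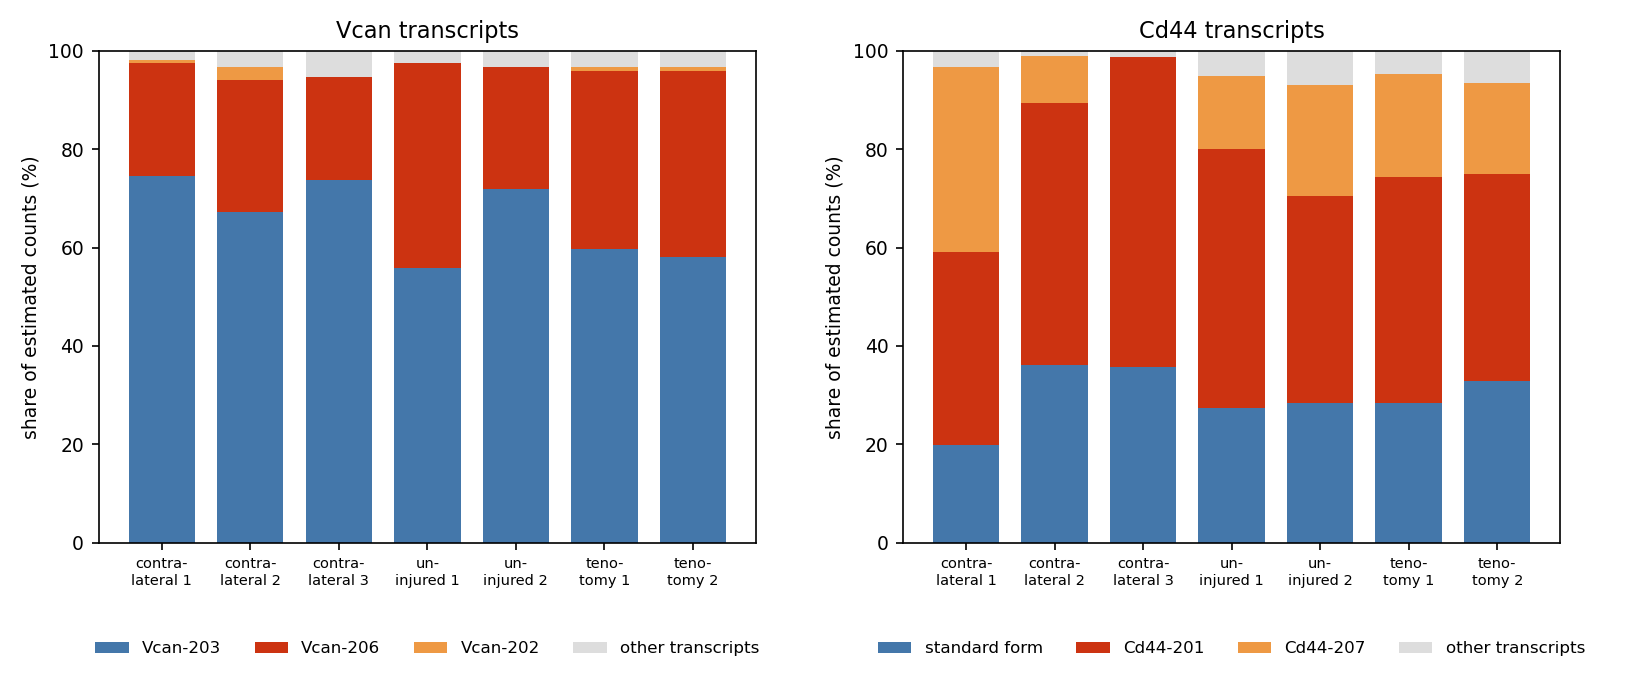
Share of estimated counts, in percent, of the main transcripts of Vcan (left) and Cd44 (right) in each library, stacked to 100%. Vcan-206 takes 36.1% to 37.8% in tenotomy libraries and 21.02% to 26.9% in contralateral ones, while the 3 named Cd44 forms overlap between those groups.

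Around the 8 genes, 67 others of hyaluronan and versican metabolism were listed, of which 55 were tested. At the tenotomy site 27 were higher than in contralateral tendon, 5 were lower and 23 did not pass, with a median log2 fold change of 0.73 (over all features -0.0012, with 13.6% called higher and 15.4% lower). In the comparisons with uninjured mice 0 of 55 were called, as were 0% of all features. At the tenotomy site against uninjured tendon, the log2 fold change was 1.82 for Acan and -1.74 for Hk2. With single libraries left out it ranged from 0.86 to 6.07 for Acan and from -2.46 to -0.17 for Hk2. The 0 therefore does not show equal levels. For tenotomy against contralateral, the fit of only the groups compared called 31 higher and 8 lower, where 22.1% and 24.1% of all features were.

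In the supply of sugar precursors, 3 of 9 genes were higher and 2 lower, where 13.6% and 15.4% of all features were. Ugdh, which makes UDP-glucuronate, was higher (log2 fold change 1.19, SE 0.22), as were Gfpt1 and Pgm3 of the hexosamine pathway (0.57 and 0.64). Hk2, a hexokinase abundant in muscle, measured 43.6, 58.1 and 54.7 CPM in contralateral and 6.85 and 7.03 in tenotomy libraries (-2.91, SE 0.61, adjusted p = 0.0172 by edgeR). Ugp2, which makes UDP-glucose, measured 47.9, 60.2 and 65.6 against 8.97 and 8.67 CPM (-2.71, SE 0.57, adjusted p = 0.0172 by edgeR). The uninjured replicates were far apart for both, at 7.80 and 38.4 CPM for Hk2 and 9.77 and 42.4 CPM for Ugp2. Both fell along with the muscle markers, whose part in these values was not tested.

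Other degradation genes were higher in 5 of 5 tested, where 13.6% of all features were, and 4 of the 9 listed were not tested. Cemip, whose product depolymerizes hyaluronan outside lysosomes, measured 0.487, 0.370 and 0.216 CPM in contralateral and 2.23 and 2.47 in tenotomy libraries (log2 fold change 2.72, SE 0.58, adjusted p = 0.0175 by edgeR). It was also high in uninjured replicate 1, at 2.95 CPM against 0.688 in replicate 2. Cemip2, another surface hyaluronidase, rose by 0.64 on the log2 scale, and Gusb and Hexa, which encode lysosomal enzymes that act on sugar chains, rose by 1.16 and 1.07. Gusb measured 4.92 and 2.34 CPM in uninjured replicates 1 and 2, with tenotomy libraries at 5.11 and 4.43. For Hexa the uninjured values were 10.2 and 4.03 CPM, with tenotomy libraries at 10.1 and 9.63.

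Of 9 other receptors and binding proteins, 2 were higher and 1 lower, where 13.6% and 15.4% of all features were. Stab1, a scavenger receptor of macrophages and sinusoidal endothelium, and Tlr2, an innate immune receptor, rose by 1.29 and 2.07 on the log2 scale. Both came with the macrophage markers described above, whose part was not tested. Habp2, which encodes a hyaluronan-binding serum protease, had 16, 25 and 24 estimated counts in contralateral and 5 and 4 in tenotomy libraries, a log2 fold change of -2.32 (SE 0.55, adjusted p = 0.0209 by edgeR). In uninjured replicates 1 and 2 it had 2 and 10 estimated counts.

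The largest changes in the list were in matrix partners, with 2 of 6 tested higher (13.6% of all features) and 8 of the 14 listed not tested. Acan, which encodes the cartilage proteoglycan aggrecan, measured 0.675, 1.11 and 0.742 CPM in contralateral and 80.7 and 86.1 in tenotomy libraries (log2 fold change 6.61, SE 1.22, adjusted p = 0.0167 by edgeR). Hapln1, whose link protein ties aggrecan or versican to hyaluronan, measured 0.787, 0.939 and 0.495 against 13.2 and 12.8 CPM (4.12, SE 0.65, adjusted p = 0.0167 by edgeR). Both are also on the cartilage marker list. Uninjured replicates 1 and 2 were at 45.9 and 1.24 CPM for Acan and at 4.53 and 0.585 CPM for Hapln1, higher in replicate 1 for both.

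Of 6 versican-cleaving protease genes, 2 were higher, where 13.6% of all features were. Adamts4 measured 0.450, 0.0854 and 0.0928 CPM against 1.17 and 1.37 (log2 fold change 2.67, SE 0.74, adjusted p = 0.0336 by edgeR), with 3 estimated counts in each of 2 contralateral libraries. Its CPM was 1.08 and 0.206 in uninjured replicates 1 and 2. Adamts15 rose by 1.69, while Adamts1, Adamts5, Adamts9 and Adamts20 did not pass, at -0.03 to 0.40.

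Genes that build chondroitin sulfate, the chain that versican carries, were higher in 11 of 16 and lower in 0, where 13.6% and 15.4% of all features were. Chsy3, a chain-elongating synthase, measured 0.412, 0.341 and 0.618 CPM in contralateral and 2.99 and 3.10 in tenotomy libraries (log2 fold change 2.72, SE 0.42, adjusted p = 0.0167 by edgeR). Xylt1, which starts the chain on the core protein, Chst11, a sulfotransferase, and Chsy1 rose by 2.46, 2.39 and 2.29. Uninjured replicates 1 and 2 were at 1.98 and 0.688 CPM for Chsy3 and at 2.87 and 0.551 CPM for Xylt1. They were at 2.37 and 1.27 CPM for Chst11 and at 5.10 and 1.07 CPM for Chsy1, so replicate 1 was higher each time. The same enzymes serve aggrecan and other proteoglycans.

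The genes of proteins that link the CD44 tail to actin split, with 2 of 4 higher and 2 lower, where 13.6% and 15.4% of all features were. Ezr and Msn were higher, by 1.65 and 1.06. Rdx, at 24.1, 25.3 and 27.5 against 14.8 and 14.1 CPM, fell by 0.82 (SE 0.21, adjusted p = 0.0248 by edgeR). Nf2, which encodes the related merlin, fell by 0.56 (SE 0.16, adjusted p = 0.0338 by edgeR).

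**Figure D5:**
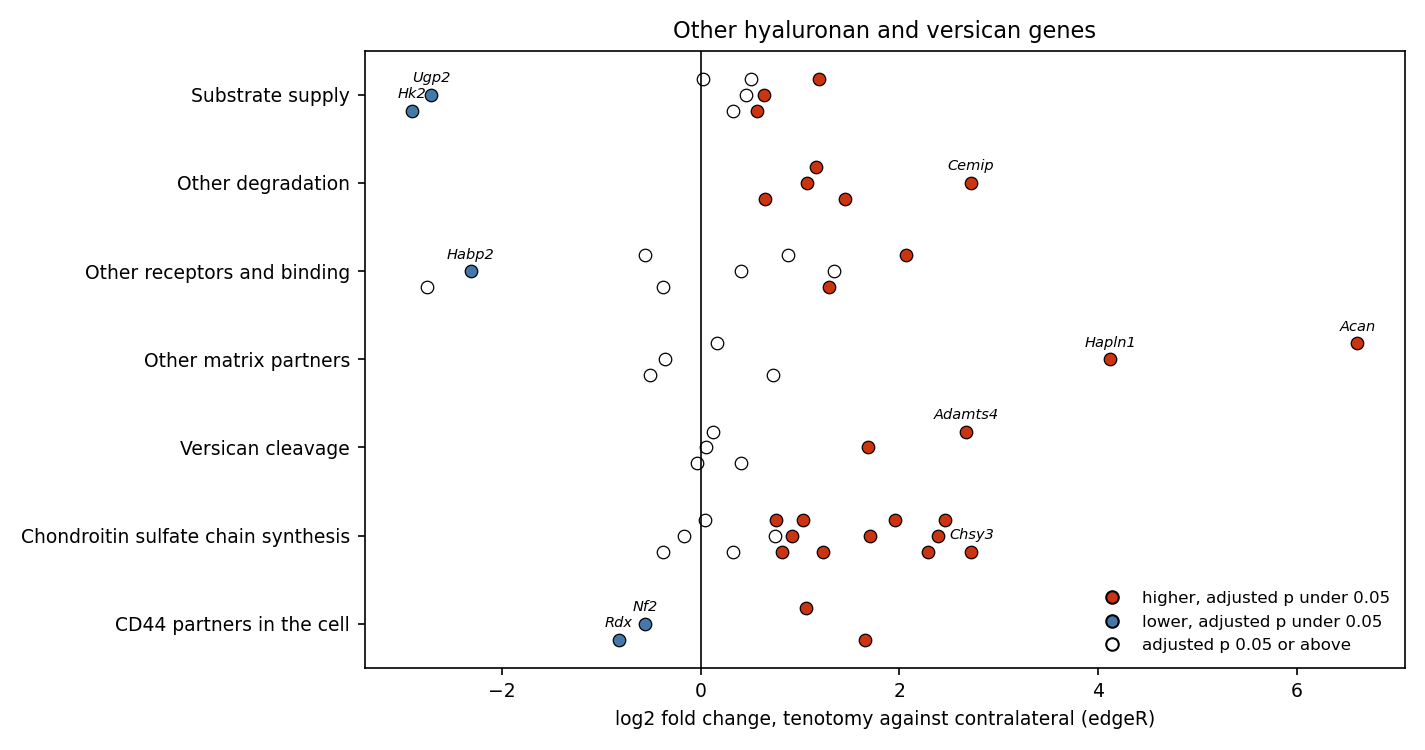
Log2 fold changes, tenotomy against contralateral, of the 55 tested genes of the list by role; red points were called higher, blue lower and open points did not pass. The 5 largest rises and the 5 falls are named, with Acan at 6.61 and Hk2 at -2.91 as the extremes.

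Across the 7 libraries, the genes most like each of the 8 were found by Pearson correlation of log2 CPM among 2019 well-expressed candidates. These coefficients are descriptions, over libraries that share their groups and scaling. Has1 was closest to Gfpt1 (r = 0.997), an enzyme of hyaluronan precursor supply that is also on the list, then Skil and Lgals1. Has2 and Tnfaip6 were both closest to Fosl2 (0.989 and 0.996), which encodes an AP-1 subunit. Cd44 was closest to Mxra8 (0.995) and Vcan to Axl (0.995). Among the 8 themselves, r was 0.98 for Has2 with Tnfaip6, 0.97 for Tnfaip6 with Vcan and 0.96 for Vcan with Cd44. Has3, Hyal1 and Hyal2 had weaker best matches: Slk (0.893), Malat1 (0.850) and Cflar (0.906).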

How the data were processed

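Total RNA from 7 tendon libraries was sequenced after a TruSeq preparation, per the labels' protocols. The authors deposited, for each library, estimated counts and TPM for 103639 transcripts, per the file headers. The submitters' processing notes name kallisto and FastQC 0.11.4, and the human build GRCh38, although the transcript identifiers are of mouse. Without version, 101510 identifiers matched GENCODE M21 (GRCm38), and 2129 were kept as single features. Estimated counts were summed per gene and rounded. Features were filtered with filterByExpr (minimum count 10), scaled by TMM and tested in edgeR 4.0.16 (R 4.3.3) by the quasi-likelihood test in a fit of all 7 libraries, with Benjamini-Hochberg adjustment and a threshold of 0.05. SE is the log2 fold change divided by the square root of F. Per-library log2 CPM used a prior count of 2. Shares used the deposited TPM.

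The 8 genes and the lists were chosen with earlier results of these data known. Genes named from the list of 67 are the 5 largest rises and 5 largest falls that passed without overlap of libraries, and others are given as examples chosen after their values were seen. The values of 1 listed gene are not reported here. The genes most like a member are the 3 with the highest correlation. On simulated counts of 15565 genes with 200 changed by 2 (log2) at the tenotomy site, edgeR called 181 and 14 others against contralateral, 164 and 7 others against uninjured, and 0 in the comparison without change. The simulation drew genes independently, so its uninjured replicates did not part across many genes at once as the real ones did. Its counts therefore do not measure the power of the real comparison with uninjured tendon. Alternatives were other scalings, filters, DESeq2 1.42.0, limma-voom (limma 3.58.1), fits of only the groups compared, the title-number series as a covariate, a test against a 1.5-fold change, length-scaled TPM and leaving out each library. The fits of only the groups compared with a library left out, or with length-scaled TPM, were added after seeing the data.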

Additional observations from a re-analysis of the deposited data

How the results depend on the processing

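No paired analysis was possible because replicate numbers follow accession order and no label ties limbs to mice. The 5 calls against contralateral tendon held under every scaling and filter tried, DESeq2, limma-voom, length-scaled TPM and the test against a 1.5-fold change, but not when a contralateral or tenotomy library left the fit of all 7. Counts of 7 to 31 for Has1 and Tnfaip6 limit precision outside the tenotomy site. With the series covariate they also passed, but that fit compares tenotomy replicate 1 alone with the contralateral libraries. The cause of the changes listed here was not tested.

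Against contralateral, all features called numbered 7385 in the fit of only the groups compared and 1565 against a 1.5-fold change, which left 16 of the list of 67. Against uninjured, DESeq2 called 145 features, no filter 15 and the series covariate 4. Contralateral against uninjured, DESeq2, no filter and the series covariate called 223, 337 and 2466 features, and 2, 4 and 19 of the list. The covariate also called 3 of the 8 genes (Cd44, Vcan and Tnfaip6, lower). Uninjured replicate 2 is alone in its series and drops out, so these calls rest on uninjured replicate 1. That library shares no series with the contralateral ones, so it is set against them only through both tenotomy libraries. The spread in that fit comes from the contralateral libraries alone. Leaving out each library gave 0 to 7336, 0 to 4275 and 0 to 5393 features in the 3 comparisons, 0 to 5, 0 to 5 and 0 to 4 of the 8 genes, and 0 to 40, 0 to 33 and 0 to 33 of the list.

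Signs turned only for values that no edgeR fit of all 7 libraries called. Hyal1 against contralateral was 0.0148 without scaling and 0.0064 with the series covariate. Hyal2 on length-scaled TPM was -0.26 against contralateral (-0.26 in the fit of only those groups) and -0.76 against uninjured (-0.77), and -0.0167 with limma-voom. With the series covariate, Has3 was -0.0015 for tenotomy and -0.23 for contralateral against uninjured, and Hyal2 0.40 for the latter. Leaving out a library, tenotomy against contralateral ranged from -0.24 to 0.235 for Has3 and -0.33 to 0.0101 for Hyal1. Tenotomy against uninjured ranged from -0.0771 to 0.38 for Has3, -0.51 to 0.15 for Hyal1 and -0.30 to 0.32 for Hyal2. Contralateral against uninjured ranged from -0.87 to 0.53 for Has1, -0.74 to 0.0529 for Has2, -0.0665 to 0.31 for Has3 and -0.37 to 0.29 for Hyal1.

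With estimated counts in place of TPM, shares in contralateral, tenotomy and uninjured libraries were 14.4%, 35.9% and 15.6% for Has1 and 45.6%, 20.5% and 38.0% for Has3. For Has2 they were 40.05%, 43.6% and 46.4%, so its share was lower at the tenotomy site than in contralateral tendon by TPM and higher by counts. Vcan-203 held 71.8%, 58.9% and 63.8%, and Vcan-206 37.0% in tenotomy. Cd44-201 held 51.9%, 44.0% and 47.4%, its standard form 30.6%, 30.6% and 27.9%, and Cd44-207 19.8% in tenotomy and 18.6% in uninjured.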
